A study of Mus musculus with 8 samples.

Results

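Kidney injury biomarkers are genes whose protein is measured in urine, plasma or tissue to detect damage to the renal tubule. The 10 described here are Havcr1, Lcn2, Clu, Vcam1, Plaur, Cst3, Timp2, Igfbp7, Fabp1 and Tff3. They were taken as a named list of clinical and experimental tubule injury markers and found by matching Ensembl identifiers to GENCODE vM21 symbols. The list makes up 10 of the 46517 genes in the files, and 8 of the 10 had enough reads to be tested. All values come from mRNA sequencing of whole kidney, so protein, urine and plasma were not measured.

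The compared kidneys came from 4 cKO mice (KO16, KO18, KO19 and KO20) and 4 Control mice (C10, C11, C13 and C14). Both groups were homozygous for a floxed allele of Xpr1 (Xpr1lox/lox), which encodes a retroviral receptor and phosphate exporter. Mice of the cKO group had, in addition, the Pax8-rtTA transgene, in which the tubule promoter Pax8 drives an activator that needs doxycycline, and the LC1 transgene, from which the activator switches on Cre. Controls were littermates that lacked both transgenes, so presence of the transgenes and loss of Xpr1 cannot be told apart in this design. Mice of both groups drank doxycycline (2 mg/ml) over 2 weeks, starting at 8 weeks of age. The comparison asks how renal transcripts differ when XPR1 is lost from the nephron, a state the study links to renal Fanconi syndrome.

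An injured proximal tubule cell sheds its brush border, lowers its transporters and switches on a set of surface and secreted proteins. HAVCR1 (KIM-1) lets surviving tubule cells take up dying ones, LCN2 (NGAL) binds iron-loaded siderophores, and clusterin is a secreted chaperone. Cystatin C is another kind of marker, made at a steady level, and reports on filtration or on uptake by the tubule. Others report on tubule stress (FABP1) or on cell-cycle stress (TIMP2 and IGFBP7).

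Reads assigned to genes ran from 20366113 (KO16) to 26155030 (C13) per library. Xpr1 itself had 5.74, 26.5, 22.0 and 12.0 CPM (reads assigned to the gene, scaled to library size) in cKO kidneys KO16, KO18, KO19 and KO20, against 80.2, 126, 108 and 103 CPM in Control kidneys C10, C11, C13 and C14. Each library therefore followed its label. Proximal tubule markers were present throughout, with a summed level of 15 markers of 5632 to 10977 CPM in cKO and 15450 to 23620 CPM in Control kidneys. Libraries differed in how their reads were spread over transcript length, and KO16, KO20 and C11 had the largest deviations in the shortest genes. Deviations were taken from the mean of the Control libraries. In the shortest sixth of the genes the median log2 deviation was 1.10 in KO16 and 0.56 in KO20, with C11 at the other end at -0.42. The other 5 libraries lay between -0.28 and 0.28. In the longest sixth the medians were -0.98 in KO16 and -0.45 in KO20, against 0.33 in C11, which lay just below KO18 at 0.35. Results that rest on KO16, KO20 or C11 are given with and without them.

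To show the members' own sequence context, the DNA just before the transcription start of 4 members is printed, taken from RefSeq promoter windows on GRCm38.p6. They are Havcr1, Lcn2 and Plaur, which had the largest log2 fold changes of the tested members, and Igfbp7, the member with the highest level per length, whose change did not pass the test. Each runs 5′ to 3′ on the gene's own strand and ends at or before the start of the principal transcript. Capitals mark matches, on either strand, to the GC box letters GGGCGG or the AP-1 letters TGANTCA.
Havcr1: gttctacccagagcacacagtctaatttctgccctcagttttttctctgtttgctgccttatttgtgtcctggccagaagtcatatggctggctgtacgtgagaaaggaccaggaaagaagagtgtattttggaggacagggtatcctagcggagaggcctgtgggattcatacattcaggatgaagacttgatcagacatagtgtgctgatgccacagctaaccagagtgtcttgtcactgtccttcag
Lcn2: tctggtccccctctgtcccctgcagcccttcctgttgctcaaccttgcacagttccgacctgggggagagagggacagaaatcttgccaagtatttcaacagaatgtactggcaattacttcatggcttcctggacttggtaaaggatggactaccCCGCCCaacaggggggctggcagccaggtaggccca
Plaur: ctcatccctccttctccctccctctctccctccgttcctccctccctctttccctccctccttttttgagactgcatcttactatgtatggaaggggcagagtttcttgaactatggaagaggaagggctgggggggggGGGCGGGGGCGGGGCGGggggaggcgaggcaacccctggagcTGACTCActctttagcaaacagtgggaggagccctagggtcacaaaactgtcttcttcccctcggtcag
Igfbp7: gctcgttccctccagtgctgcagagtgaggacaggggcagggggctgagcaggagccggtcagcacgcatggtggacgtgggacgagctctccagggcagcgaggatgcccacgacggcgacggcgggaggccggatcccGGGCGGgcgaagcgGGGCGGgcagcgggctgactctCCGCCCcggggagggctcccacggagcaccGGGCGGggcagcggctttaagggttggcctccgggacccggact
The Havcr1 stretch lies at chr11:46750918-46751167 (plus strand, 250 bases) and the Lcn2 stretch at chr2:32387798-32387989 (minus strand, 192 bases), both inside the span of the annotated gene. Havcr1 has 3 RefSeq starts. The others lie at chr7:24462233-24462482 (Plaur, plus strand, 250 bases) and chr5:77408046-77408295 (Igfbp7, minus strand, 250 bases).

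Within full windows of 300 bases (250 before and 50 after the start), Plaur held 1 AP-1 match, at -69 from the start, and 3 GC boxes, the last pair of which share a base. Havcr1 held 1 AP-1 match just after its start, outside the printed stretch, and no GC box. Lcn2 held 1 GC box, on the strand opposite to the gene, and Igfbp7 held 4. The AP-1 letters occurred in 7.81% and the GC box letters in 35.7% of all 32851 RefSeq windows of this length. No match to TTCNNNGAA (the STAT letters, in 8.3% of windows) or the kappa-B motif (in 1.63%) lay in any of the 7 member windows in the table, which also include Cst3, Timp2 and Fabp1. Of these, Fabp1 alone had a TATAAA match (the TATA box letters), at -30; those letters occurred in 13.6% of windows. The G and C share of the window was 73.3% for Igfbp7, 68.7% for Timp2, 60.3% for Cst3, 59.3% for Plaur, 56.3% for Lcn2, 46.7% for Havcr1 and 45% for Fabp1, beside a median of 52.7% over all windows. These matches describe letters and show nothing about binding of a factor.

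Of the 8 tested biomarkers, 5 rose in cKO kidneys (Havcr1, Lcn2, Plaur, Vcam1 and Clu) and 3 (Cst3, Timp2 and Igfbp7) did not pass the test. The test was edgeR's quasi-likelihood F test with Benjamini-Hochberg adjustment over 15382 genes and a threshold of 0.05, by which 14.1% of all tested genes were called, 7.5% higher and 6.61% lower. The log2 fold changes of the 8 ran between 0.53 and 4.96, where the median of all tested genes was 0.01. In whole kidney, more or fewer cells of a type cannot be told apart from more or less RNA per cell, and this holds for each value below.

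Havcr1 (ENSMUSG00000040405, chr11:46735080-46779578, plus strand) encodes KIM-1, the phosphatidylserine receptor of injured proximal tubule cells. It had 393 CPM in KO16, 111 in KO18, 165 in KO19 and 138 in KO20, against 2.46 CPM in Control mouse C10, 20.6 in C11, 1.35 in C13 and 1.46 in C14. The groups did not overlap, and C11 stood far above the other Controls while staying below every cKO kidney. The log2 fold change was 4.96 (SE 1.02, 95% interval 2.67 to 7.25, edgeR adjusted p = 0.0122), the largest of the list, with the widest interval. It was 6.84 without C11 and 4.41 without KO16, and passed the test in both cases.

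Lcn2 (ENSMUSG00000026822, chr2:32384633-32388252, minus strand) encodes NGAL, a siderophore-binding lipocalin made by stressed distal and proximal tubule cells and by neutrophils. Its levels were 72.7 CPM in KO16, 31.6 in KO18, 41.5 in KO19 and 56.5 in KO20, against 1.83 CPM in Control C10, 6.98 in C11, 1.22 in C13 and 1.73 in C14. Again no Control reached the lowest cKO kidney and C11 was the highest Control. The log2 fold change was 4.10 (SE 0.60, 95% interval 2.74 to 5.45, edgeR adjusted p = 0.00268). The sum over 12 neutrophil markers was 8.40 CPM in KO16, 2.30 in KO18, 3.58 in KO19 and 6.20 in KO20, against 6.75 CPM in Control C10, 2.37 in C11, 4.65 in C13 and 2.48 in C14. Mpo was at 0 in every library. The groups overlapped in this sum, and within the cKO kidneys its order was that of Lcn2. None of the 3 neutrophil markers with enough reads passed in edgeR over all libraries, where 0 of 3 had an unadjusted p under 0.05. DESeq2 called 0 of the 6 it tested. Without KO16, KO20 and C11, Csf3r was higher and S100a9 lower, in a fit that called 4689 of all 15881 genes higher and 4486 lower. The part of neutrophils in the Lcn2 result was not tested.

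**Figure D1:**
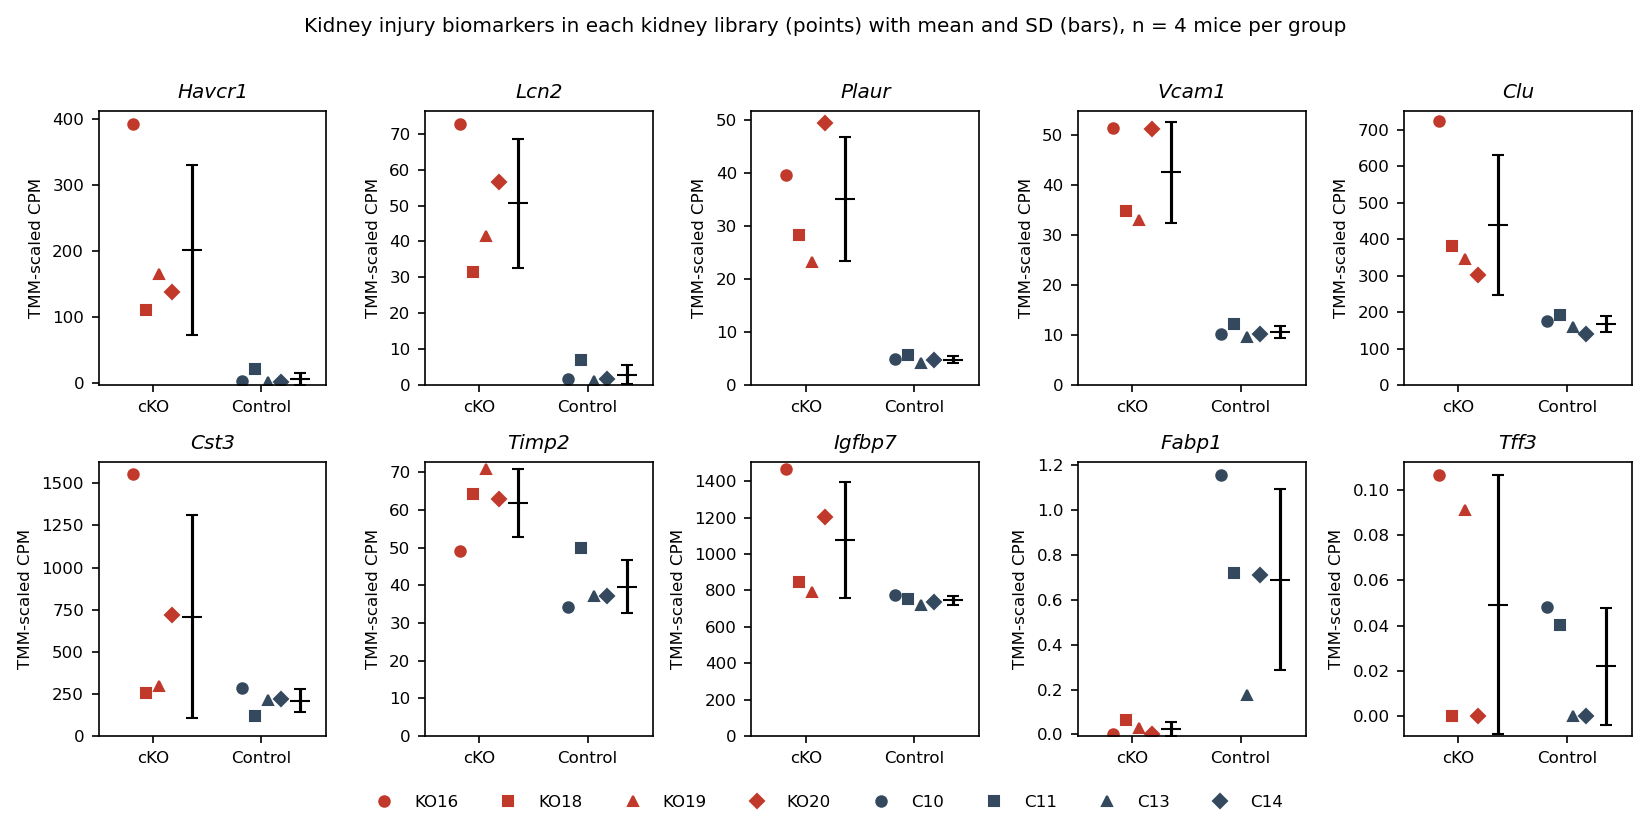
Level of each of the 10 biomarkers in TMM-scaled CPM on linear axes, with 1 point per kidney (cKO red at left, Control dark grey at right) and the group mean with SD beside the points, n = 4 mice per group. Havcr1, Lcn2, Plaur, Vcam1 and Clu separate fully, Cst3 and Timp2 overlap by 1 pair of kidneys, and Fabp1 and Tff3 stay near or below 1 CPM.

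Clu (ENSMUSG00000022037, chr14:65968483-65981547, plus strand) encodes clusterin, a secreted chaperone that is measured in urine after tubule damage. It stood at 723 CPM in KO16, 382 in KO18, 347 in KO19 and 303 in KO20, against 177 CPM in Control C10, 191 in C11, 161 in C13 and 140 in C14. Although clusterin was already abundant in Control kidneys, every cKO kidney lay above every Control. The log2 fold change was 1.39 (SE 0.30, 95% interval 0.71 to 2.07, edgeR adjusted p = 0.0158). This call was lost without Control C13 (1.36, adjusted p = 0.0643) and without Control C14 (1.30, adjusted p = 0.0644), where the fold stayed close to the value over all mice.

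Plaur (ENSMUSG00000046223, chr7:24462484-24475968, plus strand) encodes uPAR, the receptor of the urokinase plasminogen activator, whose soluble form is measured in plasma. Its cKO levels were 39.5 CPM in KO16, 28.2 in KO18, 23.2 in KO19 and 49.4 in KO20, against 4.87 CPM in Control C10, 5.62 in C11, 4.13 in C13 and 4.70 in C14. The lowest cKO kidney was over 4 times the highest Control. Plaur rose by a log2 fold change of 2.86 (SE 0.29, 95% interval 2.21 to 3.51, edgeR adjusted p = 0.000671), the smallest p of the list.

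Vcam1 (ENSMUSG00000027962, chr3:116109949-116129688, minus strand) encodes an adhesion molecule that binds leukocyte integrins; endothelium makes it, and so do proximal tubule cells that fail to repair. It had 51.5 CPM in KO16, 34.7 in KO18, 33.0 in KO19 and 51.2 in KO20, against 10.3 CPM in Control C10, 12.3 in C11, 9.56 in C13 and 10.2 in C14. Both groups were tight and far apart. The log2 fold change was 2.01 (SE 0.23, 95% interval 1.48 to 2.53, edgeR adjusted p = 0.00101). None of 11 endothelial markers passed in edgeR (2 had an unadjusted p under 0.05, and DESeq2 called 2 lower), and their sum was 434 to 477 CPM in cKO and 481 to 671 CPM in Control kidneys, while 12 of 13 macrophage markers rose. The macrophage sum was 1134 CPM in KO16, 316 in KO18, 352 in KO19 and 838 in KO20, against 137 to 154 CPM in Controls. KO16 and KO20 were thus high and KO18 and KO19 low in the macrophage sum, in Vcam1 and in Plaur. Macrophages can express Plaur, Vcam1, Lcn2 and Cst3, and their part in these results was not tested.

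Cst3 (ENSMUSG00000027447, chr2:148871722-148875692, minus strand) encodes cystatin C, a cysteine protease inhibitor made by most nucleated cells and filtered by the glomerulus. Its levels were 1556 CPM in KO16, 258 in KO18, 298 in KO19 and 721 in KO20, against 287 CPM in Control C10, 123 in C11, 214 in C13 and 218 in C14. KO16 and KO20 were far above the Controls, while KO18 lay below C10. The log2 fold change of 1.75 (SE 0.57, 95% interval 0.47 to 3.03) did not pass the edgeR test (adjusted p = 0.0750). It was 0.39 (adjusted p = 0.430) without KO16 and KO20 and 0.17 (adjusted p = 0.311) when C11 was left out as well. Cst3 lies in the shortest sixth of the genes, and its cKO levels ran in the order of the length deviations and of the macrophage sums. With a length trend removed from each library the log2 fold change was 1.20 and passed (edgeR adjusted p = 0.0186), and the part of the macrophages in the value was not tested. The sum of 6 adipocyte markers ran in that order too, with 611 CPM in KO16, 69.5 in KO18, 140 in KO19 and 471 in KO20, against 44.7 to 183 CPM in Controls, and its part was not tested either. Without KO18 the log2 fold change of Cst3 was 2.02 and passed (edgeR adjusted p = 0.0346).

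Timp2 (ENSMUSG00000017466, chr11:118301069-118355740, minus strand) and Igfbp7 (ENSMUSG00000036256, chr5:77349240-77408041, minus strand) encode an inhibitor of matrix metalloproteinases and a secreted IGF-binding-like protein, whose urinary product is a clinical test for acute kidney injury. Timp2 had 49.2 CPM in KO16, 64.2 in KO18, 70.8 in KO19 and 63.0 in KO20, against 34.1 CPM in Control C10, 49.9 in C11, 37.2 in C13 and 37.1 in C14. Here KO16 was the lowest cKO kidney, just under C11, and the other cKO kidneys exceeded all Controls. The log2 fold change was 0.64 (SE 0.21, 95% interval 0.17 to 1.11, edgeR adjusted p = 0.0745). It passed without Control C11 (0.77, adjusted p = 0.0449), without KO16 (0.74, adjusted p = 0.0245) and without KO16, KO20 and C11 (0.86, adjusted p = 0.000121). The last of these fits set KO18 and KO19 against C10, C13 and C14. It called 4689 of all 15881 genes tested higher and 4486 lower.

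Igfbp7 had 1469 CPM in KO16, 844 in KO18, 789 in KO19 and 1202 in KO20, against 778 CPM in Control C10, 755 in C11, 719 in C13 and 734 in C14. The Controls had a coefficient of variation of 3.44%, the cKO kidneys 29.7%, and KO19 lay barely above C10, so that the groups did not overlap by a narrow margin. Its log2 fold change of 0.53 (SE 0.25, 95% interval -0.03 to 1.09) did not pass the edgeR test (adjusted p = 0.209), and it was 0.12 (adjusted p = 0.562) without KO16 and KO20. Igfbp7, like Cst3, lies in the shortest sixth of the genes, and after the same removal of a length trend its log2 fold change was 0.17 (adjusted p = 0.653). The opposite-strand gene Polr2b overlaps Igfbp7, with 412 to 1565 reads in cKO and 720 to 1919 reads in Control libraries, and the strand setting of the counting is not given in the sources used here.

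The geometric mean of Timp2 and Igfbp7, built like the clinical product, was 269 CPM in KO16, 233 in KO18, 236 in KO19 and 275 in KO20, against 163 CPM in Control C10, 194 in C11, 163 in C13 and 165 in C14. All cKO kidneys exceeded all Controls on this combined level. KO16, the highest cKO kidney for Igfbp7 and the lowest for Timp2, was second here.

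Fabp1 (ENSMUSG00000054422, chr6:71199827-71205023, plus strand), the liver-type fatty acid binding protein, is excreted in urine by the human proximal tubule under stress and is scarcely expressed in mouse kidney. Its reads were 0 in KO16, 2 in KO18, 1 in KO19 and 0 in KO20, against 24 in Control C10, 18 in C11, 4 in C13 and 16 in C14. No cKO library reached the lowest Control, at levels of 0 to 0.064 CPM in cKO and 0.174 to 1.16 CPM in Control kidneys. Among all tested genes, which leave Fabp1 out, groups with cKO wholly below Control were found for 11.6%. Summed over libraries and scaled by depth, the ratio of Control to cKO was 24.2 (exact 95% interval 7.90 to 120, covering counting error alone). The gene had too few reads for the test over 15382 genes. When the filter was dropped, its log2 fold change was -4.45 (SE 0.80, edgeR adjusted p = 0.00472 over 26115 genes), a value that depends on the prior count. Fabp1 is also a hepatocyte gene: the sum of 9 hepatocyte markers was 173 to 228 CPM in cKO and 474 to 716 CPM in Control kidneys. Of the 9, 4 fell (2 without Control C10, C13 or C14 or without KO20) and 5 did not pass, and Ttr and Apob, with Control means of 299 and 275 CPM, made up most of the Control sum. Of the proximal tubule markers, 12 of 15 fell (7 without KO20). Without C10, C13, C14 or KO20 in turn, 566 to 712 of all genes were lower, against 1016 over all libraries. The part of hepatocyte and proximal tubule genes in the Fabp1 value was not tested.

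Tff3 (ENSMUSG00000024029, chr17:31125306-31129646, minus strand) encodes trefoil factor 3, a mucosal repair peptide used as a urinary marker in rats. It had 2 reads in KO16, 3 in KO19 and 0 in KO18 and KO20, against 1 read each in Controls C10 and C11 and 0 in C13 and C14. A level of 3 reads, the most that a count of 0 allows, is 0.0909 to 0.159 CPM in these libraries, and every value lay at or below that level. A difference in Tff3 was not detectable at this depth.

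Ranked by change, the tested biomarkers ran Havcr1, Lcn2, Plaur, Vcam1, Cst3, Clu, Timp2 and Igfbp7. Agreement over libraries gave another order. The cKO library was higher in all 16 pairs of a cKO and a Control library for Havcr1, Lcn2, Plaur, Vcam1, Clu and Igfbp7, and in 15 pairs for Cst3 and Timp2; groups with cKO wholly above Control were found for 11.2% of all tested genes. The gap on the log2 CPM scale between the nearest libraries was 2.43 for Havcr1, 2.17 for Lcn2, 2.03 for Plaur, 1.42 for Vcam1, 0.66 for Clu, 0.02 for Igfbp7, -0.02 for Timp2 and -0.16 for Cst3. Cst3 was thus the fifth by change and the last by agreement.

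**Figure D2:**
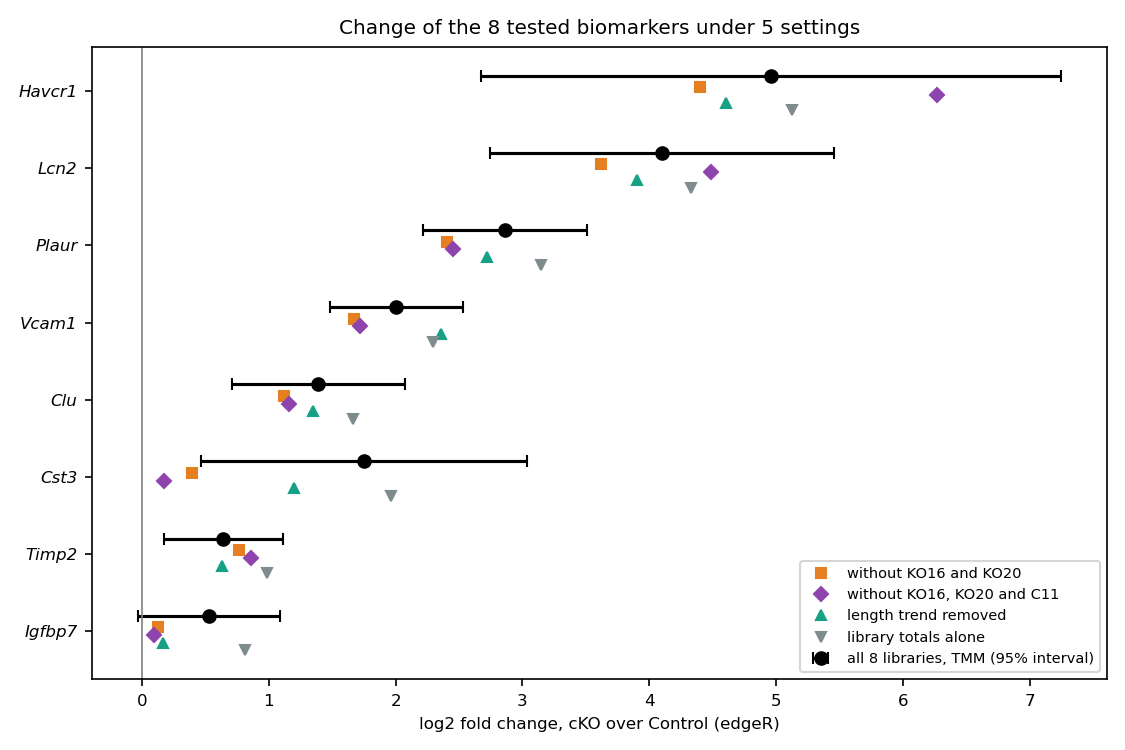
edgeR log2 fold change (cKO over Control) of the 8 tested biomarkers over all 8 libraries with its 95% interval (black), and the value under 4 other settings (coloured symbols). Havcr1, Lcn2, Plaur, Vcam1 and Clu stay well above 0 throughout, and Cst3 moves from 1.75 over all libraries to 0.17 without KO16, KO20 and C11.

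The same kidneys were often the extremes of their group. KO16 was the highest cKO kidney for 6 of the 8 tested biomarkers, with KO20 highest for Plaur and KO19 for Timp2. C11 was the highest Control for 6 of 8, with C10 highest for Cst3 and Igfbp7, and C13 was the lowest Control for 5 of 8. The cKO level of Lcn2 and of Cst3 followed the order KO16, KO20, KO19, KO18. That is also the order of the length deviations and the reverse of the remaining Xpr1 level. No other tested biomarker followed it: Havcr1 ran KO16, KO19, KO20, KO18 and Timp2 ran KO19, KO18, KO20, KO16. A relation to the Xpr1 level was not tested. The ratio of Havcr1 to Lcn2 was 5.40 in KO16, 3.51 in KO18, 3.97 in KO19 and 2.44 in KO20, against 1.34 in Control C10, 2.95 in C11, 1.11 in C13 and 0.846 in C14. KO20 fell below C11 in this ratio, so the balance of these leading markers overlapped between groups where each marker alone did not.

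**Figure D3:**
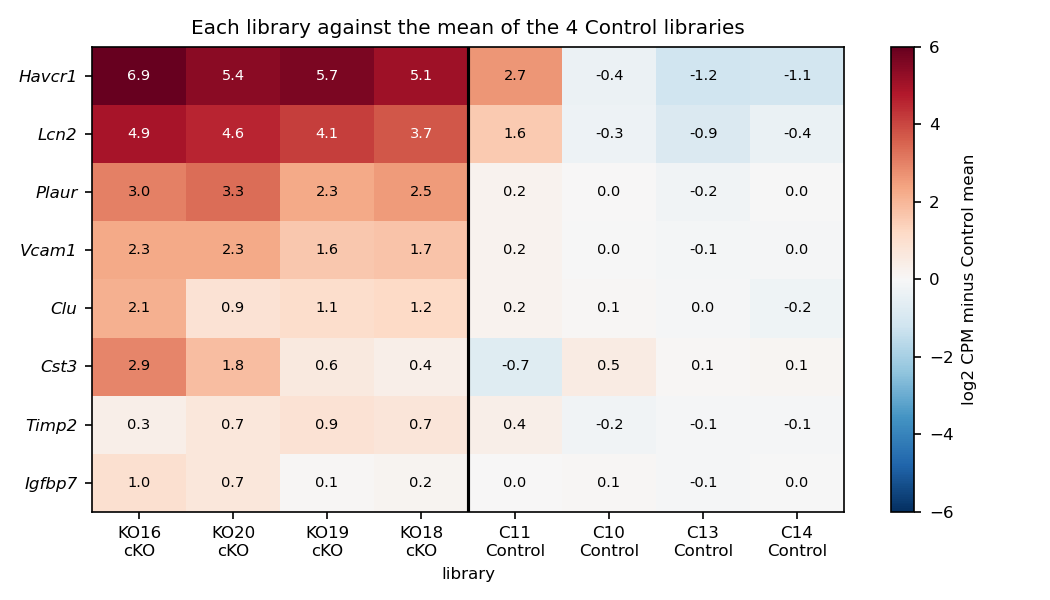
Log2 CPM of each tested biomarker (rows) in each library (columns, cKO at left, Control at right) minus the mean of the 4 Controls, written in each cell and coloured red above and blue below it. C11 reaches 2.66 for Havcr1 and 1.57 for Lcn2, while Cst3 lies between 0.35 (KO18) and 2.95 (KO16) in cKO kidneys and between -0.72 (C11) and 0.51 (C10) in Controls.

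Levels of different genes were compared as CPM per kb of the principal transcript. In cKO kidneys the mean levels per kb were 897 for Igfbp7, 823 for Cst3, 242 for Clu, 107 for Havcr1, 55.3 for Lcn2, 23.3 for Plaur, 16.7 for Timp2 and 12.3 for Vcam1. In Control kidneys they were 622 for Igfbp7, 245 for Cst3, 92.4 for Clu and 10.7 for Timp2, followed by 3.42 for Havcr1, 3.21 for Lcn2, 3.21 for Plaur and 3.05 for Vcam1. Igfbp7, Cst3 and Clu thus led in both groups. The cKO mean of Cst3 rested on KO16 (1809 CPM per kb) and KO20 (838), against 347 in KO19 and 299 in KO18. Igfbp7 and Cst3 lie in the shortest sixth of the genes, where KO16 and KO20 deviated upward. The Control values of Timp2, Havcr1, Lcn2, Plaur and Vcam1 overlapped from each gene to the next, and in cKO the neighbours from Igfbp7 down to Lcn2 overlapped as well. The lowest Lcn2 level in cKO, 34.5 CPM per kb, lay narrowly above the highest Plaur level, 32.8 CPM per kb. Tff3 and Fabp1 came last in cKO with 0.100 and 0.0426 CPM per kb, and Fabp1 and Tff3 in Control with 1.25 and 0.0448 CPM per kb.

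The families to which Timp2 and Igfbp7 belong moved in both directions. Timp1, the inducible metalloproteinase inhibitor, rose to 5.75 ± 4.41 CPM in cKO, against 0.316 ± 0.246 CPM in Control kidneys (SD, n = 4 each), a log2 fold change of 4.13 (edgeR adjusted p = 0.00502). Timp3, the matrix-bound inhibitor, fell to 737 ± 158 CPM in cKO, against 2268 ± 185 CPM in Control kidneys, with a log2 fold change of -1.62 (edgeR adjusted p = 0.00254). Among the IGF-binding proteins, Igfbp2 rose (2.79, adjusted p = 0.00467) while Igfbp4 (-2.23, adjusted p = 0.00234) and Igfbp1 (-2.21, adjusted p = 0.00599) fell. Igfbp3 (-0.39), Igfbp5 (-0.62) and Igfbp6 (1.36) did not pass the edgeR test, and 2 of them depended on the libraries. Igfbp3 passed without KO16 and KO20 (-0.78, adjusted p = 0.0141) and without KO16, KO20 and C11 (-0.82, adjusted p = 0.000255). Igfbp5 was higher in the second of these fits (0.35, adjusted p = 0.0342), which called 4689 of all 15881 genes higher and 4486 lower. Whether Timp2 or Igfbp7 differs from its relatives in its change was not tested.

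**Figure D4:**
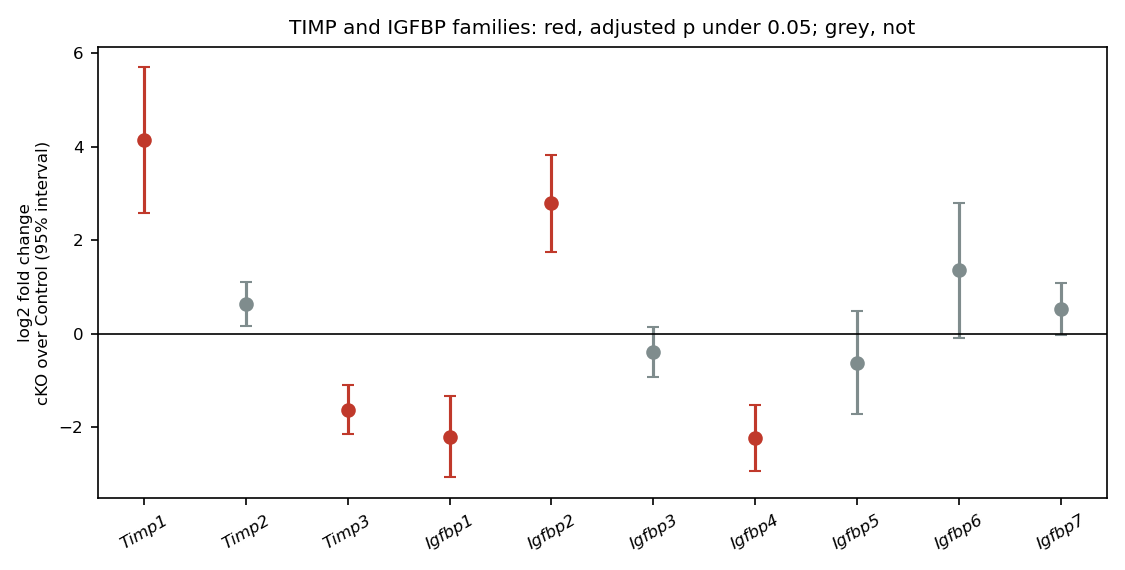
edgeR log2 fold change (cKO over Control) with its 95% interval for the tested TIMP and IGFBP genes, red where the adjusted p was under 0.05 and grey where it was not. Timp1 at 4.13 and Timp3 at -1.62 lie on either side of Timp2 at 0.64, and Igfbp7 at 0.53 lies between Igfbp2 at 2.79 and Igfbp4 at -2.23.

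Other published tubule injury markers were counted as a list of 35, of which 32 were tested. In cKO kidneys 19 of the 32 rose, 1 fell and 12 did not pass, with a median log2 fold change of 1.56. Cdkn1a, which encodes the cell-cycle inhibitor p21, rose by 5.04 on the log2 scale, Anxa3, an annexin of injured tubules, by 2.74, Spp1 (osteopontin) by 2.21 and Cp (ceruloplasmin) by 2.06, all with an edgeR adjusted p at or below 0.000671. The counts ran from 13 to 21 higher when single libraries were left out, where those over all genes ran from 531 to 1363. The gene that fell, named after its value was seen, was Fgb, a fibrinogen chain (-2.16, edgeR adjusted p = 0.0248), and none of the list was lower without Control C10, Control C14, KO19 or KO20. Of 13 tested genes that mark injured Vcam1-positive proximal tubule cells, 3 rose (Relb 1.18, Cxcl10 1.07 and Tpm1 1.14), 1 fell (Bcat1 -1.19) and 9 did not pass, with a median log2 fold change of 0.55. The count higher was 0 without Control C10, C13 or C14 and 1 without KO20. Those fits called 724, 531, 595 and 745 of all genes higher, against 1154 over all libraries. Bcat1 lost its call in the same fits and without KO16 or KO19 (edgeR adjusted p 0.0522 to 0.0833). Cxcl10 also lost its call without KO18 (adjusted p = 0.0623), Tpm1 without Control C11 (adjusted p = 0.0695) and Relb without KO19 (adjusted p = 0.0567). In the fits without C10, C13 and C14, Relb, an NF-kappa-B subunit, had edgeR adjusted p-values of 0.0711, 0.0851 and 0.0827. Without KO16, KO20 and C11 together, 10 of the 13 were higher. That fit set KO18 and KO19 against C10, C13 and C14. It called 4689 of all 15881 genes tested higher and 4486 lower.

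Genes that act with HAVCR1 and LCN2, or resemble them, included several that fell. Timd2, a TIM-family relative of Havcr1 and in mice a receptor for H-ferritin, fell (-1.84, edgeR adjusted p = 0.00545), with 20.8 to 50.3 CPM in cKO and 82.9 to 119 CPM in Control kidneys. Havcr2 (TIM-3, an immune checkpoint receptor) had 0.99 (adjusted p = 0.0536) and passed without KO16 (adjusted p = 0.0144). Of 12 other genes of phosphatidylserine-dependent uptake, Mfge8 (1.82, adjusted p = 0.0075), a bridging protein, and Pros1 (0.91) rose, and the scavenger receptors Cd36 (-1.86, adjusted p = 0.00111) and Stab2 (-2.99, adjusted p = 0.00177) fell. Of the 8 fits that left out a single library, Pros1 kept its call in that without KO16 alone, with edgeR adjusted p-values of 0.061 to 0.155 in the other 7. Of the 4 tested receptors that take up LCN2 and filtered protein, Lrp2 (megalin) fell, with 178 to 581 CPM in cKO and 986 to 2402 CPM in Control kidneys (-1.81, edgeR adjusted p = 0.0244). Cubn (cubilin) had -1.76 (adjusted p = 0.0609) and passed without KO18 (adjusted p = 0.0447). The Lrp2 call was lost without KO19 (adjusted p = 0.0537) and without KO20 (adjusted p = 0.0615).

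Among other lipocalins, Apod rose (3.55, edgeR adjusted p = 0.0128) and Apom fell (-2.18, adjusted p = 0.00114), and 3 did not pass. Of 8 iron handling genes, the transferrin receptor Tfrc (-1.65, adjusted p = 0.0106) and the iron transporter Slc11a2 (-1.30, adjusted p = 0.0167) fell and 6 did not pass.

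Plaur rose with part of the plasminogen activator system. Of 10 tested genes of the system 4 rose, 1 fell and 5 did not pass, with a median of 1.27. The number higher was 2 without Control C13 or C14, fits that called 531 and 595 of all genes higher, against 1154 over all libraries. Serpine2 (protease nexin 1), an inhibitor of plasminogen activators, rose to 43.4 to 113 CPM in cKO, against 14.8 to 20.1 CPM in Control kidneys (2.05, edgeR adjusted p = 0.00397). Anxa2, a plasminogen-binding annexin, had 2.10 (adjusted p = 0.0171), and its call was lost without Control C13 (adjusted p = 0.0638) or C14 (adjusted p = 0.0549). Serpinf2, the plasmin inhibitor, fell to 29.6 to 61.1 CPM in cKO, against 323 to 384 CPM in Control kidneys (-2.95, edgeR adjusted p = 0.000401). Among 9 relatives of Plaur by domain, Lypd3 alone rose (3.32, adjusted p = 0.011), at levels below 1.3 CPM, and Ly6e had 0.71 (adjusted p = 0.0842).

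Few receptors or relatives of VCAM1 passed the test. None of its 5 tested integrin chains passed in edgeR, with Itgb2 at 0.80 (adjusted p = 0.0813) and Itgb1 at 0.45 (adjusted p = 0.22). Itgb2 passed without Control C11 (adjusted p = 0.0179) and Itgb1 without KO16 (adjusted p = 0.0238). Without KO16, KO20 and C11, 3 of the 5 were higher, in a fit that called 4689 of all 15881 genes higher and 4486 lower. Over all libraries edgeR gave 1 of the 5 at an unadjusted p under 0.05 (Itgb2), and DESeq2 called 1. Of 7 other leukocyte adhesion molecules, Icam1 rose (0.82, adjusted p = 0.0395), a call lost without Control C10, C13 or C14 and without KO18, KO19 or KO20 (adjusted p 0.0535 to 0.144), and Mcam had 0.71 (adjusted p = 0.0931), which passed without Control C11 (adjusted p = 0.0224) or KO16 (adjusted p = 0.049).

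Cystatin C's relatives and targets were mixed. Cstb, an intracellular cystatin, rose (2.14, edgeR adjusted p = 0.0406), with 713 CPM in KO16, 111 in KO18, 136 in KO19 and 314 in KO20, against 39.5 to 91.5 CPM in Controls. This is the same order of cKO kidneys as for Cst3, and the Cstb call was lost without KO16 (1.37, adjusted p = 0.0599), without KO20 (adjusted p = 0.0898) and without each of the 4 Controls in turn (adjusted p 0.0803 to 0.109). Fetub had 0.92 (adjusted p = 0.0554), and 10 of the 12 cystatins listed had too few reads. Of 13 cysteine cathepsins and related lysosomal proteases, Ctsk (1.77, adjusted p = 0.00292), Ctss (1.91, adjusted p = 0.00787), Ctsc (0.88, adjusted p = 0.0219) and 1 other rose. Lgmn, the asparaginyl protease legumain, fell (-0.95, adjusted p = 0.0162). The Ctsc and Lgmn calls were both lost without Control C13, Control C14 or KO20, where edgeR adjusted p-values were 0.0539 to 0.0979. Lgmn also lost its call without KO19 (adjusted p = 0.0507). The number of proteases higher was 2 in each of those fits without C13, C14 or KO20. Of all genes, 531, 595 and 745 were higher there, against 1154 over all libraries.

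Of 15 tested metalloproteinases, which TIMPs inhibit, 7 rose and 8 did not pass. Fibroblasts, pericytes and mesangial cells make several of these proteases and TIMPs. Their markers had a sum of 402 to 622 CPM in cKO and 219 to 325 CPM in Control kidneys. Of these markers 3 of 11 rose (2 without Control C13, 5 without Control C11 or KO16). All genes higher in those fits were 531, 1074 and 1363, against 1154 over all libraries. The part of these cells in the results was not tested. Mmp7 (matrilysin), itself proposed as a urinary marker, had 0.736 to 3.99 CPM in cKO and 0 to 0.193 CPM in Control kidneys (4.87, edgeR adjusted p = 0.00693). Mmp14 rose by 1.23 (adjusted p = 0.00865), Mmp2 by 1.45 (adjusted p = 0.00996) and Mmp3 by 1.48 (adjusted p = 0.0162). Only 3 metalloproteinases were higher without KO20 and 4 without Control C13 or C14. Those fits called 745, 531 and 595 of all genes higher, against 1154 over all libraries. Mmp3 lost its call without Control C10, C13, C14 or KO20 (edgeR adjusted p 0.0533 to 0.0693). Of 15 IGF axis genes, 1 rose (Igfbp2) and 4 fell, among them Igfals (-1.83, adjusted p = 0.00307) and Esm1 (-1.41, adjusted p = 0.00404).

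**Figure D5:**
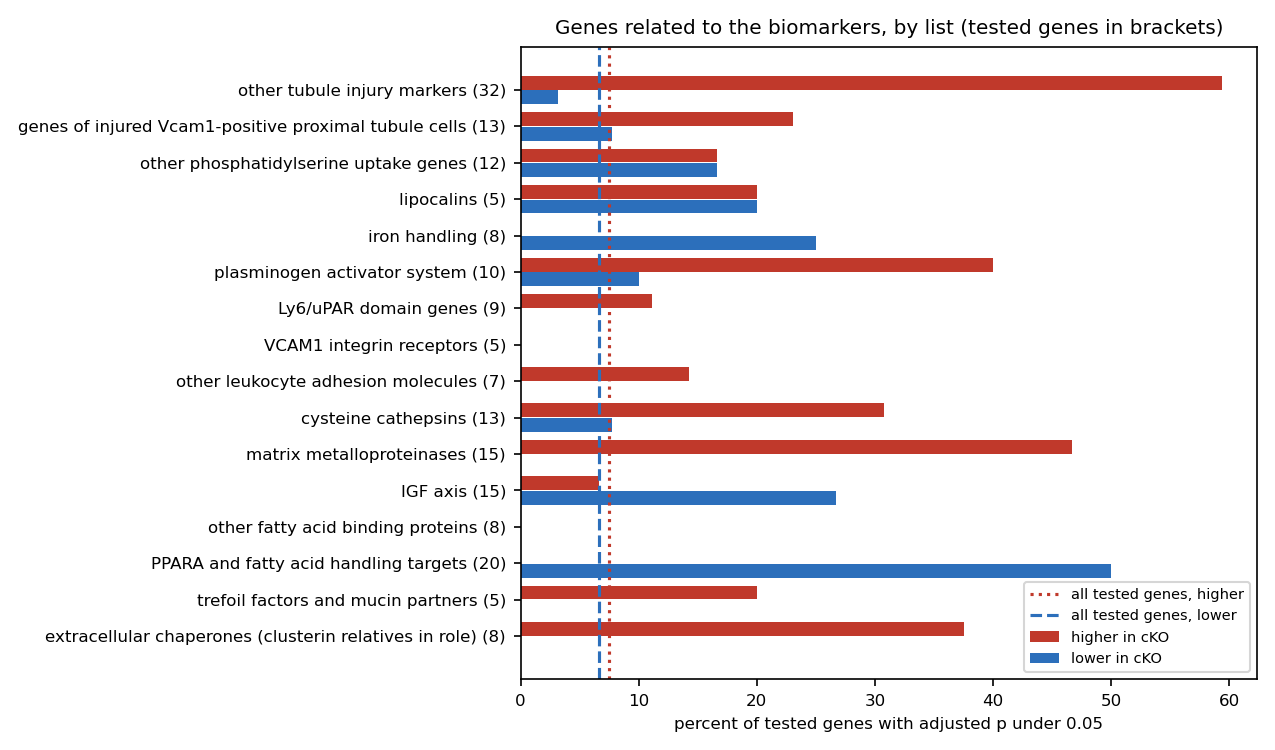
Percent of the tested genes of each related list with at least 5 of them that were higher (red) or lower (blue) in cKO kidneys by edgeR, with the number tested in brackets and the shares over all 15382 genes as vertical lines (7.5% higher, 6.61% lower). Among these lists the other tubule injury markers have the longest red bar (19 of 32) and the PPARA and fatty acid handling targets the longest blue bar (10 of 20).

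Fabp1 is a target of the nuclear receptor PPARA. Of 20 genes of that group, 10 fell and 10 did not pass, with a median of -0.91; they include Ehhadh (-1.32, edgeR adjusted p = 0.00702) of peroxisomal fatty acid oxidation and Cyp4a10 (-1.85, adjusted p = 0.0112), a fatty acid hydroxylase. The number lower was 5 without Control C13, 6 without Control C14 and 6 without KO20. Those fits called 575, 605 and 566 of all genes lower, against 1016 over all libraries. No other fatty acid binding protein passed in edgeR (0 of 8, with 3 at an unadjusted p under 0.05), with Crabp2 at 1.59 (adjusted p = 0.0815). The number higher in edgeR was 1 without KO18 or KO19, where 1206 and 970 of all genes were higher. DESeq2, which tested 13, called 3 higher, beside 1764 over all genes. Of 5 trefoil factor and mucin partners of TFF3, 4 did not pass. Muc1, an epithelial mucin, rose (1.60, adjusted p = 0.00679) and Cxcr4 had 1.07 (adjusted p = 0.0766), which passed without KO16 (adjusted p = 0.0414).

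Genes related to clusterin's role, among them chaperones and receptors, were tested as a list of 8. Hspb1, a small heat shock protein, rose (2.82, edgeR adjusted p = 0.000903), as did Cryab (2.36, adjusted p = 0.00565), a related small heat shock protein, and Trem2 (4.03, adjusted p = 0.00222), a lipid receptor of macrophages that binds clusterin. Apoe had 1.05 (adjusted p = 0.0573) and passed without KO18 (adjusted p = 0.027). Among 10 reference genes the median log2 fold change was 0.15. Actb, which is often used to normalise such markers, was 0.75 (adjusted p = 0.0336), a call lost without each of the 4 Controls in turn and without KO19 or KO20 (adjusted p 0.0603 to 0.128), and Ywhaz was -0.67 (adjusted p = 0.0529), which passed without KO16 (adjusted p = 0.028).

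Genes whose pattern over the 8 libraries was most like each biomarker were found by the mean absolute difference of centred log2 CPM among 12839 genes. For Havcr1 these were Krt20 (0.517) and Psrc1 (0.600), for Lcn2 Lgi2 (0.218) and C4bp (0.332), and for Plaur Enkur (0.188) and Anxa3 (0.200). For Vcam1 they were Homer3 (0.0637) and Ssbp4 (0.0820), for Clu Asrgl1 (0.164) and Agt (0.166), and for Cst3 Ten1 (0.0642) and Eif4ebp1 (0.0939). Igfbp7 was nearest to Cyp2j6 (0.0663) and Dexi (0.0672), and Timp2 to Cdc42ep4 (0.0782) and Cds1 (0.0794). No gene came within 0.5 of Havcr1, whose spread over the libraries was the widest of the list, whereas Vcam1, Cst3, Igfbp7 and Timp2 each had a gene within 0.1.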

How the data were processed

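The deposited values are raw counts, 1 file for each of 8 whole kidneys (4 cKO, 4 Control), listing Ensembl genes. Libraries were stranded and made from mRNA, per the labels' protocols. The submitters' processing notes name cutadapt 1.3, STAR 2.4.0g, HTSeq 0.6.1 and the build GRCm38. Neither the annotation release nor the strand setting is given in the sources used here. Symbols and positions came from GENCODE vM21, which matched 46005 of 46517 identifiers, and promoters from RefSeq on GRCm38.p6. The 5 closing lines that name no gene (39.7% to 56.2% of each file's total) were left out.

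Counts were compared with the quasi-likelihood F test of edgeR 4.0.16 in R 4.3.3, after TMM scaling and a low-count filter (filterByExpr, count 10, total 15). Adjustment was by Benjamini-Hochberg over 15382 genes with a threshold of 0.05. The common biological coefficient of variation was 0.386. CPM values are TMM-scaled, log2 CPM used a prior count of 2, and the SE derives from the F statistic. Depth was 20366113 to 26155030 reads. Each mouse gave 1 library, so spread between mice cannot be told apart from other spread between libraries. The p-values measure the spread between these libraries. The labels give no batch or pairing and do not say which litter each mouse came from.

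The members and lists were chosen with earlier results of these data known. Genes named are the members, Xpr1, up to 4 genes with the smallest p from each related list (up to 2 where under 3 passed), the remaining tested IGFBP genes, and the 2 genes most like each member, among genes with a mean of at least 1 CPM. Genes of the cell type lists are given as sums and counts, apart from S100a9, Csf3r, Mpo, Ttr and Apob. Like Fgb, these exceptions were picked with their values in view. Some genes that fit the rule are not reported here. The script was tested on simulated data. The 18 alternatives include DESeq2 1.42.0 and limma-voom (limma 3.58.1).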

Additional observations from a re-analysis of the deposited data

Results flagged for a closer look

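Within each group of 4 kidneys, a kidney far from the other 3 was looked for. The measure was the gap to its nearest neighbour relative to the group's range, over 142 groups of 4 values. The genes searched were the members, Xpr1, the genes chosen by smallest p from the related and reference lists and the remaining tested IGFBP genes. Other genes named in the text were not searched. Chance sets about 1 in 20 such groups apart, and 17 stood apart here. Of these, 14 were Control mouse C11. It was the highest Control, in CPM, for Havcr1 (20.6, next 2.46), Lcn2 (6.98, next 1.83), Relb (5.21, next 2.75), Lrp2 (2402, next 993), Cubn (607, next 238), Icam1 (20.2, next 13.8), Mcam (19.8, next 11.7), Lgmn (663, next 569), Timp1 (0.682, next 0.222), Igfbp4 (834, next 429), Muc1 (16.3, next 8.56) and Igfbp5 (799, next 365). It was the lowest Control for Itgb1 (287, next 298) and Crabp2 (0.0401, next 0.348). C11 was thus the highest Control for Havcr1 and Lcn2 and for the proximal tubule receptors Lrp2 and Cubn alike. This did not hold for all injury markers. C11 was the lowest Control for Cst3 (123, next 214) and Anxa2 (58.7, next 68.0), where the rule did not set it apart. It is also the Control whose reads leaned most to long transcripts.

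The remaining 3 were the Control mouse C13 for Lypd3 (0 CPM, next 0.0802), the cKO mouse KO20 for Cp (252 CPM, next 191) and the cKO mouse KO16 for Timd2 (50.3 CPM, next 25.6). Among the members themselves, no cKO kidney stood apart by this rule, including KO16 with 393 CPM of Havcr1 and 1556 CPM of Cst3.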

How the results depend on the processing

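Havcr1, Lcn2, Plaur and Vcam1 passed under all 18 alternatives. Their log2 fold changes ran from 4.40 to 6.84 for Havcr1, 3.62 to 4.98 for Lcn2, 2.41 to 3.14 for Plaur and 1.67 to 2.35 for Vcam1. Clu passed under 16 (1.04 to 1.67). Timp2 passed under 8 (0.57 to 0.98), Cst3 under 4 (0.17 to 2.02) and Igfbp7 under 1 (0.10 to 0.81), library totals alone, a scaling that moved the median of all genes to 0.34. With upper-quartile factors that median was 0.14 and with DESeq2 0.11. Each of the 8 kept its sign.

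The number of biomarkers higher was 5, against 8 with library totals alone, 7 with DESeq2 or with the length trend removed, and 4 to 6 when single libraries were left out. The number lower was 0, against 1 (Fabp1, which reaches the test through its Control reads) with DESeq2, with no filter, without KO16 and KO20, and without KO16, KO20 and C11, and 0 to 1 without single libraries. Over all genes the 1154 higher became 2374 with library totals alone, 1764 with DESeq2 and 4689 without KO16, KO20 and C11, and ran from 531 to 1363 without single libraries. The 1016 lower became 548 with library totals alone and 4486 without KO16, KO20 and C11, and ran from 566 to 1334 without single libraries.

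S100a9 (0.33), a neutrophil marker, ran from -0.28 (without KO16) to 0.96 (without C10) when single libraries were left out. It was -1.23 without KO16 and KO20 and -0.13 with the length trend removed. Without KO16, KO20 and C11 it was -1.57 (edgeR adjusted p = 0.0237), and Csf3r, another neutrophil marker, was higher (1.08, edgeR adjusted p = 0.0119). Igfbp5 (-0.62) was 0.35 in that same fit. The cause of these changes of sign was not tested. Controls were littermates, but the litter of each mouse is not given, so litter was not in the test and no paired analysis was possible. At this depth, Tff3, with at most 3 reads in any library, could not be compared.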
